A study of Mus musculus with 14 samples.

Results

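The CREB coactivator CRTC2 was mapped by ChIP-seq in 3T3-L1 cells. This mouse line grows as preadipocytes and can be differentiated into fat-storing adipocytes. The comparison described here is between cells exposed for 1 h to 10 µM forskolin (FSK) alone and cells exposed for 1 h to 10 µM FSK together with TNFα. Its members are 11749 CRTC2 peaks called with FSK and 14171 called with FSK/TNFα, 25920 of the 243429 peaks in the 12 lists of the series. A peak of one list was taken as shared when it overlapped a peak of the other by at least 1 bp. By that rule 6364 peaks were kept, each pairing with a single peak of the other list, 7807 were gained (in the FSK/TNFα list alone) and 5385 were lost (in the FSK list alone), at 19556 merged loci. The series also holds CRTC2, NF-κB p65 and H3AcK27 (acetylated lysine 27 of histone H3) lists for untreated, FSK, TNFα and FSK/TNFα cells. All cells were the 3T3-L1 line, labelled as adipocytes, with no genetic change. Each group is 1 library, so no difference below has a replicate check, no p-value is given, and all intervals are 95% intervals for counting error over peaks only.

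FSK activates adenylyl cyclase and so raises cAMP. In the CREB pathway, cAMP activates protein kinase A (PKA), which phosphorylates CREB and inhibits the salt-inducible kinases (SIKs). CRTC coactivators, held in the cytoplasm when phosphorylated by SIKs, then enter the nucleus and bind CREB on cAMP response elements (CREs) of its target genes. TNFα is an inflammatory cytokine that releases NF-κB dimers, p65 among them, from IκB inhibitors and also activates AP1, the family of Fos and Jun dimers. The study asked whether cAMP and TNFα signals act on separate or on common sites, and the pair of libraries here sets the CRTC2 map with both agents beside that with the cAMP signal alone.

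The sequences that follow are 200 bp windows centered on peaks of GRCm38 (mm10), plus strand, taken from RefSeq, with matches to the CRE (TGACG, either strand), AP1 (TGACTCA or TGAGTCA) and NF-κB motifs in capitals. The first set holds peaks of high rank in each class that had a CRE match and touched no annotated exon. It is shown so that the same element can be seen in kept, gained and lost peaks.
Babam2, kept, chr5:31698420-31698619: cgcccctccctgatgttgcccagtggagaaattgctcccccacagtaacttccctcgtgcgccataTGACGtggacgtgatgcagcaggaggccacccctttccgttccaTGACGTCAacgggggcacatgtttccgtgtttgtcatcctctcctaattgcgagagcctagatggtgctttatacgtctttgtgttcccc
Fosl2, gained, chr5:32135396-32135595: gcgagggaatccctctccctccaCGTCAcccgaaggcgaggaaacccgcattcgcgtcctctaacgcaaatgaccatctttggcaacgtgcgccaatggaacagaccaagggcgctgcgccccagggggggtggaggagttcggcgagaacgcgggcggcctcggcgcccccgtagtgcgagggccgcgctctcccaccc
Dgat1, gained, chr15:76512275-76512474: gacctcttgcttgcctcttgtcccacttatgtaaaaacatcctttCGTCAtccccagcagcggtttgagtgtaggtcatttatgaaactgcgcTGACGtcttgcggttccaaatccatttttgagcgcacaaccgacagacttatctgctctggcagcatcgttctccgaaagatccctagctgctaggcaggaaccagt
Sod2, gained, chr17:13010075-13010274: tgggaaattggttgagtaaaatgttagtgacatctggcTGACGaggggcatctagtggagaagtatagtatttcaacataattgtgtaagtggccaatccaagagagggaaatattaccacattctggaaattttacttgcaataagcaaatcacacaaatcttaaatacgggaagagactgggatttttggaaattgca
Eif4ebp1, lost, chr8:27260080-27260279: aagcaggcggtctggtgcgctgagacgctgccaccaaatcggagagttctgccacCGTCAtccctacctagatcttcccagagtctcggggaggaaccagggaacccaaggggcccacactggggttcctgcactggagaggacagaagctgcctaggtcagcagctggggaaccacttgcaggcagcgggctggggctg
Gpalpp1, lost, chr14:76099705-76099904: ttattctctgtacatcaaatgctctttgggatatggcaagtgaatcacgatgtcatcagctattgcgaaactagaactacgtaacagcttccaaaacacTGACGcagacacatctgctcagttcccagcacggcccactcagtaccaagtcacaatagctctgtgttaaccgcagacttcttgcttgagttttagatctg
The Babam2 window alone among these holds the palindromic CRE, TGACGTCA, which contains TGACG on both strands. The Fosl2 and Dgat1 windows lie 306 and 423 bp before the start of a gene for an AP1 subunit and of a gene for a triglyceride-synthesis enzyme. The Eif4ebp1 window lies 150 bp before the start of a gene for an inhibitor of translation initiation.

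A second kind of gained peak held no CRE. The 2 strongest gained peaks with an NF-κB motif, a p65 peak of the FSK/TNFα library and no exon are shown because, of the 5 motifs searched, this one had the largest ratio of its gained to its lost share.
Poc1b, gained, chr10:99081630-99081829: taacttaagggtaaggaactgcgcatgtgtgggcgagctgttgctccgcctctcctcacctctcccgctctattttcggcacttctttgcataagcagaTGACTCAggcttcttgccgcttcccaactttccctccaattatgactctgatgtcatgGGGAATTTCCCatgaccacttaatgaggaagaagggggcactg
Vmn1r39, gained, chr6:66848991-66849190: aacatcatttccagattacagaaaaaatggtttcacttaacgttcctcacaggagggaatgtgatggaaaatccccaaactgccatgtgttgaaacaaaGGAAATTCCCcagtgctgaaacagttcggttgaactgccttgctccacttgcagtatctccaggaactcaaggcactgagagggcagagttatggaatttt
The Poc1b window also carries an AP1 match ahead of its NF-κB match. Both are intergenic, 25307 and 38481 bp before the nearest protein-coding start, and their nearest gene names the position only.

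The libraries differed in depth, with 16438040 tags for FSK and 31807394 for FSK/TNFα, and both were called by the authors against the same input of FSK-treated cells. Depth and the added TNFα cannot be told apart in the length of the lists. Of the labelled cell type's 9 defining genes, only Fabp4 and Lpl had an H3AcK27 region over a transcription start in the FSK and FSK/TNFα cells. The starts of Pparg, Cebpa, Adipoq, Plin1, Cd36, Slc2a4 and Cidec had none, and within 1 kb of a start the count was 3 of 9. Of 8 preadipocyte genes, 6 were marked with FSK and 7 with FSK/TNFα (6 and 8 within 1 kb), of 8 macrophage genes 2 and 3, and of 4 endothelial genes 0 and 0, against 43.8% and 46.9% of 21829 protein-coding genes. The mark was thus at few of the genes that define the labelled cell type, and the cells are called 3T3-L1 cells here. In 5 bins of 2 Mb on chromosomes 4 and 10 the input tags in listed peaks exceeded 5 times the median bin. These bins held 19 kept, 14 gained and 9 lost peaks, and among the best 100 peaks of each list they held 6 of the 7 lost and 4 of the 6 gained.

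Adding TNFα left most strong CRTC2 sites in place. Of the FSK/TNFα peaks, 55.1% were gained (54.3–55.9%), and of the FSK peaks, 45.8% were lost (44.9–46.7%). The share kept fell with rank, where rank is by the normalized tag count, the tags of a peak scaled by the authors to a library of 10000000. With each list split into 10 groups of equal size by rank, 90.7% of FSK peaks were kept in the highest group (88.9–92.2%) and 27.4% in the lowest (24.9–30.0%). In the FSK/TNFα list the same shares were 90.8% (89.2–92.2%) and 11.5% (9.94–13.3%). Of the best 1000 peaks, 76 of the FSK list (7.6%) and 72 of the FSK/TNFα list (7.2%) had no partner in the other list. The lists cut to an equal length of 11749 peaks gave 48.6% not shared on either side.

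**Figure D1:**
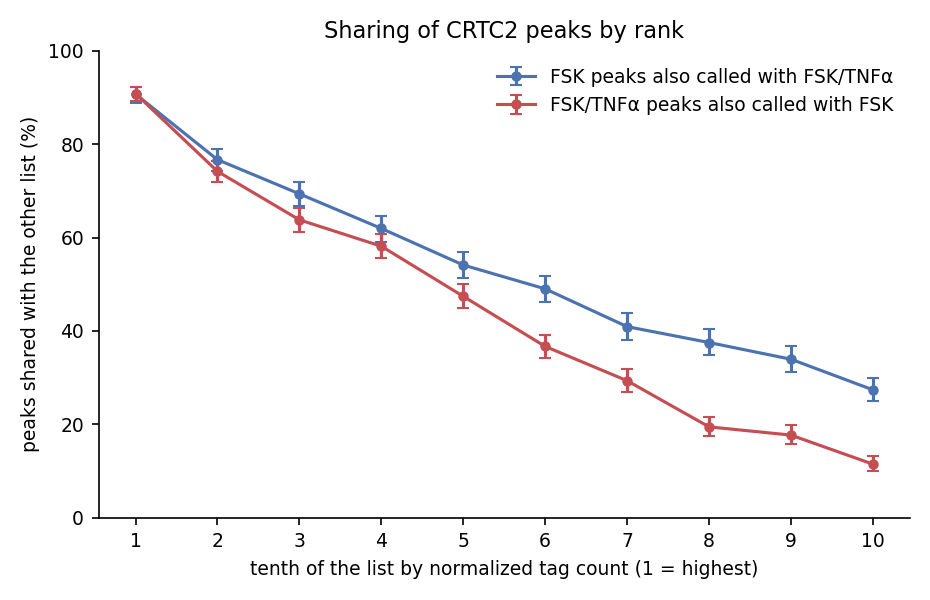
Percent of CRTC2 peaks shared with the other list (y axis) in each of 10 equal groups of a list ranked by normalized tag count (x axis, 1 is highest), for the FSK list (blue) and the FSK/TNFα list (red). Bars are 95% Wilson intervals over peaks; sharing falls from 90.7% and 90.8% in the highest group to 27.4% and 11.5% in the lowest.

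Gained and lost peaks were weaker than kept ones in their own library. The median normalized tag count was 15.4 for kept peaks with FSK/TNFα and 15.8 for the same peaks with FSK, 9.12 for gained peaks and 11 for lost peaks. Of the gained peaks, 1494 (19.1%) exceeded the median FSK peak of 13.4, and of the lost peaks, 2647 (49.2%) exceeded the median FSK/TNFα peak of 11.3. The lists differ in length and in lowest count, 4.87 with FSK and 3.46 with FSK/TNFα. Their medians are thus unlike yardsticks, and the shares of gained and lost peaks above them are not comparable. The authors' threshold of 4-fold over input was close for 16.8% of gained and 17.9% of lost peaks, which stood under 5-fold, against 9.52% of kept peaks. Gained and lost peaks could also neighbor each other: 18.8% of gained peaks had an FSK peak centered within 1 kb, and 26.8% of lost peaks an FSK/TNFα peak. One such pair lies before the start of Sirt4, a gene for a mitochondrial sirtuin. There the FSK/TNFα peak at chr5:115489499-115489661 held 68.5 normalized tags at rank 75, 4855 bp before the start, and counted as gained, while the FSK peak at chr5:115489677-115489837 held 69.4 at rank 78 and counted as lost. Neighboring calls that do not overlap thus enter both classes at such a site, and the shares without them are given with the other settings below.

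**Figure D2:**
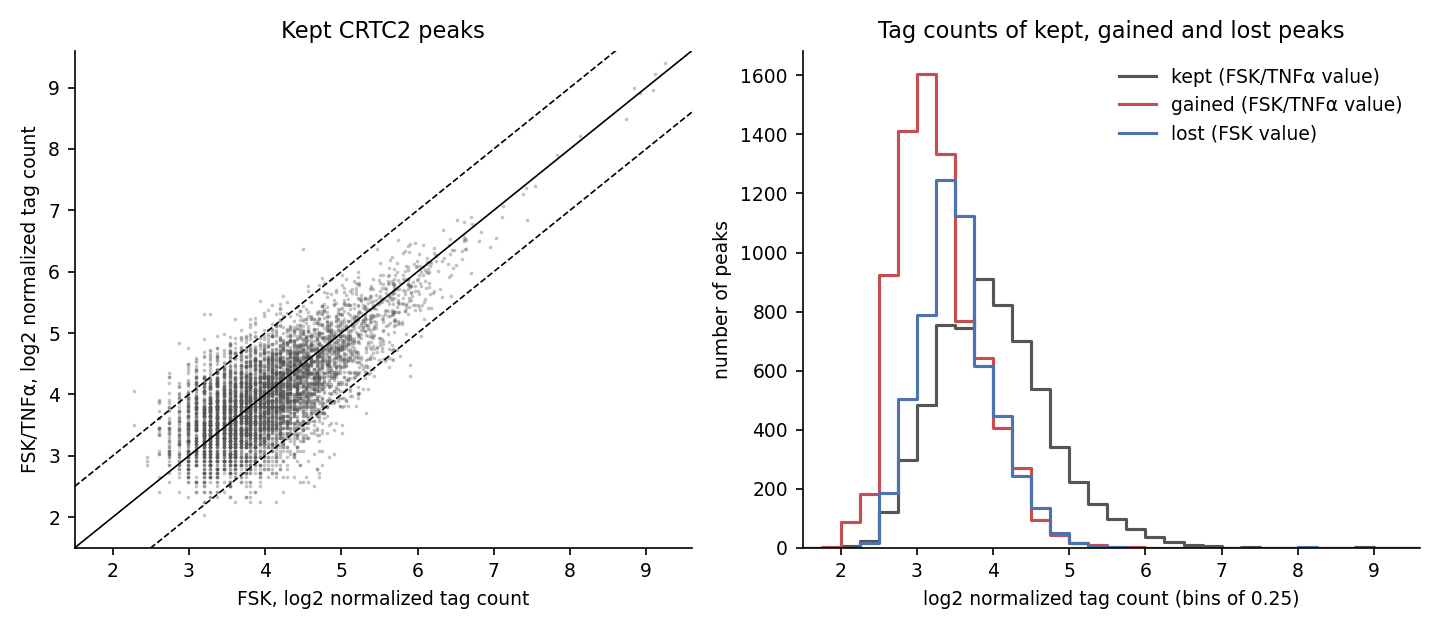
Left, log2 normalized tag count of the 6364 kept peaks with FSK (x axis) and with FSK/TNFα (y axis), 1 point a peak, with the line of equality and dashed lines at 2-fold. Right, number of kept, gained and lost peaks (y axis) by log2 normalized tag count (x axis); gained and lost peaks, with medians of 9.12 and 11 tags, sit to the left of kept peaks, with a median of 15.4.

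Within the kept set, the tag count of a peak changed little. The ratio of the normalized tag count with FSK/TNFα to that with FSK had a median of 0.965 and an SD of 0.55 on the log2 scale, and 72.1% of pairs lay within 1.5-fold. More than 2-fold higher with FSK/TNFα were 201 peaks (3.16%), and more than 2-fold lower were 266 (4.18%). At 1.5-fold the shares were 12.1% higher and 15.8% lower. By the authors' peak score in place of the normalized tag count, 522 peaks were over 2-fold higher and 5 over 2-fold lower. The median ratio of all kept peaks was 1.3 by score, so the whole set shifted and the balance of the 2-fold counts turned with the measure. Where both libraries held at least 20 normalized tags (1377 pairs), 8 peaks were past 2-fold higher and 12 past 2-fold lower, so most pairs with a large ratio were under 20 tags in at least 1 library.

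The kept peaks named next are among the strongest by FSK/TNFα rank and were close to equal in the pair of libraries. A site 8006 bp before Tnfsf15, which encodes a TNF-family ligand, held 170.9 normalized tags with FSK and 165.1 with FSK/TNFα. The CRE-bearing promoter peak of Babam2, shown above, held 104.6 and 109.4. Brd2, which encodes a reader of acetylated histones, had a promoter peak of 80.9 and 102.5 tags. None of these moved by as much as 1.5-fold. The ratio of strong peaks depended on the library used for ranking. The best 1000 kept peaks by FSK rank had a median ratio of 0.861, with 3 over 2-fold higher and 65 over 2-fold lower. The best 1000 by FSK/TNFα rank had a median of 1.12, with 71 over 2-fold higher and 1 over 2-fold lower.

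The classes differed in where they lay. Promoters, taken as 1000 bp upstream to 100 bp downstream of a protein-coding start, held 61.1% of kept peaks, 31.2% of gained peaks and 37.2% of lost peaks. The gained share was below the lost share (difference -5.95 points, -7.60 to -4.30). With lists of equal length the gap was smaller, at 36.5% of gained and 37.5% of lost peaks. The median distance to the nearest start was 156 bp for kept, 7329 bp for gained and 3550 bp for lost peaks. Introns held 14.8%, 31.2% and 29.1%, and sequence between genes 20.7%, 32.5% and 28.6%. The position differed less between strong peaks. Among the best 1000 of each class, a comparison chosen after seeing the data, promoters held 59% of gained and 61.4% of lost peaks (difference -2.40, -6.68 to 1.89). Nearly all kept peaks, 94.8%, lay in H3AcK27 regions of the FSK/TNFα cells, against 72.6% of gained and 71.7% of lost peaks. This gap was also smaller between strong peaks, at 98.2%, 95% and 91% of the best 1000 of each class. Within promoters the shares were 97.9%, 95.9% and 94.7%.

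p65 was measured in libraries of its own, and its peaks were found more often at gained than at lost CRTC2 peaks. The p65 list of FSK/TNFα cells held 266 kept (4.18%), 210 gained (2.69%) and 56 lost peaks (1.04%). Gained exceeded lost by 1.65 points (1.19–2.10). The p65 list of TNFα cells, called against the input of untreated cells, held 1.81% of kept, 1.81% of gained and 0.706% of lost peaks, with gained above lost by 1.10 points (0.723–1.47). The p65 list of FSK cells gave 0.833%, 0.410% and 0.316%, and here the interval of gained minus lost, -0.13 to 0.300 points, spans 0. The order of gained above lost held for the p65 lists of TNFα and of FSK/TNFα cells in each of the 6 settings run. For FSK/TNFα it was 3.65% against 1.30% outside promoters and 5.3% against 1.6% among the best 1000 of each class. Within promoters it did not hold for this list, with 14 of 2438 gained (0.574%) and 12 of 2002 lost peaks (0.599%). Most gained peaks still had no p65 peak called.

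The CRTC2 list of cells given TNFα alone, called against the input of untreated cells, set gained and lost peaks apart in an order that depended on the length of the lists. It held 62.9% of kept peaks, 27.2% of gained and 30.4% of lost peaks (gained minus lost -3.12 points, -4.70 to -1.55). With lists of equal length the order turned, to 32.3% of gained and 31.1% of lost peaks. Among the best 1000 of each class the shares were 54.6% and 53.3% (difference 1.30, -3.06 to 5.66). Of the gained peaks, 2127 were thus called with TNFα alone as well, and 364 (4.66%) in untreated cells.

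Kept peaks that also carried a p65 peak had higher ratios than the rest. The 266 with a p65 peak in FSK/TNFα cells had a median ratio of 1.15, against 0.961 for the 6098 without. Of these 266, 21 were over 2-fold higher (7.89%, interval 5.22–11.8%) and 2 were over 2-fold lower. The 115 with a p65 peak in TNFα cells had a median of 1.24, with 12 over 2-fold higher and 1 lower. Looked at from the other side, p65 peaks of FSK/TNFα cells stood at 10.4% of the 201 kept peaks that were over 2-fold higher and at 0.752% of the 266 that were over 2-fold lower, a difference of 9.70 points (5.68–14.7). The 4006 kept peaks that CRTC2 also occupied with TNFα alone had a median ratio of 0.962, against 0.975 for the others.

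The CRE set kept peaks apart from both other classes, and AP1 set gained apart from lost. In the 200 bp window centered on the peak, a CRE stood at 34.5% of kept peaks, 17.7% of gained and 17.5% of lost. It stood at 15.7% of 32851 promoter windows of the same length and 5.81% to 6.43% of windows 2 kb away. Gained and lost peaks differed by 0.115 points (-1.21 to 1.43) for this motif. The palindromic CRE stood at 4.57%, 1.63% and 1.26% (1.47% of promoters). AP1 matches, by contrast, were more frequent in gained peaks (15.9%) than in lost (11.5%) or kept peaks (12.8%), with gained above lost by 4.36 points (3.18–5.53), against 3.66% of promoters. Outside promoters AP1 stood at 29.2% of kept, 21.5% of gained and 16.7% of lost peaks, so the lower share over all kept peaks went with their larger number of promoters.

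The NF-κB motif was rare in each class. It was found in 47 gained peaks (0.602%, 0.453–0.8%), 5 lost peaks (0.0929%, 0.0397–0.217%) and 11 kept peaks (0.173%, 0.0965–0.309%), against 0.119% of promoters and 0.102% of the windows 2 kb from gained peaks. Gained exceeded lost by 0.509 points (0.315–0.714). The best 1000 gained peaks held 4 (0.4%, 0.156–1.02%), near the share of all gained peaks, so no trend with rank is read from this. The best 1000 lost peaks held 0 (difference 0.400 points, -0.054 to 1.02). The C/EBP motif, TTGCNNAA, bound by a family of adipogenic and inflammatory factors, stood at 9.93% of kept, 12.5% of gained and 11.2% of lost peaks, against 8.03% to 8.52% of windows 2 kb away and 7.47% of promoters. For C/EBP, gained exceeded lost by 1.25 points (0.121–2.36). AP1, NF-κB and C/EBP matches were more frequent in gained than in lost peaks in each of the 7 settings run. The CRE and the palindromic CRE were so in 6 of the 7, so this order is not particular to AP1 and NF-κB. Within promoters, which these settings leave out, C/EBP had the reverse order, at 5.17% of gained and 5.79% of lost peaks. AP1 stood there at 3.32% and 2.75%, with overlapping intervals, against 3.66% of promoters. For C/EBP the interval of gained minus lost spans 0 outside promoters (-0.199 to 2.87) and in the best 1000 (-1.40 to 4.01). It also does so without neighbors within 1 kb (-0.103 to 2.54). A match describes these letters only and does not show binding of a factor.

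**Figure D3:**
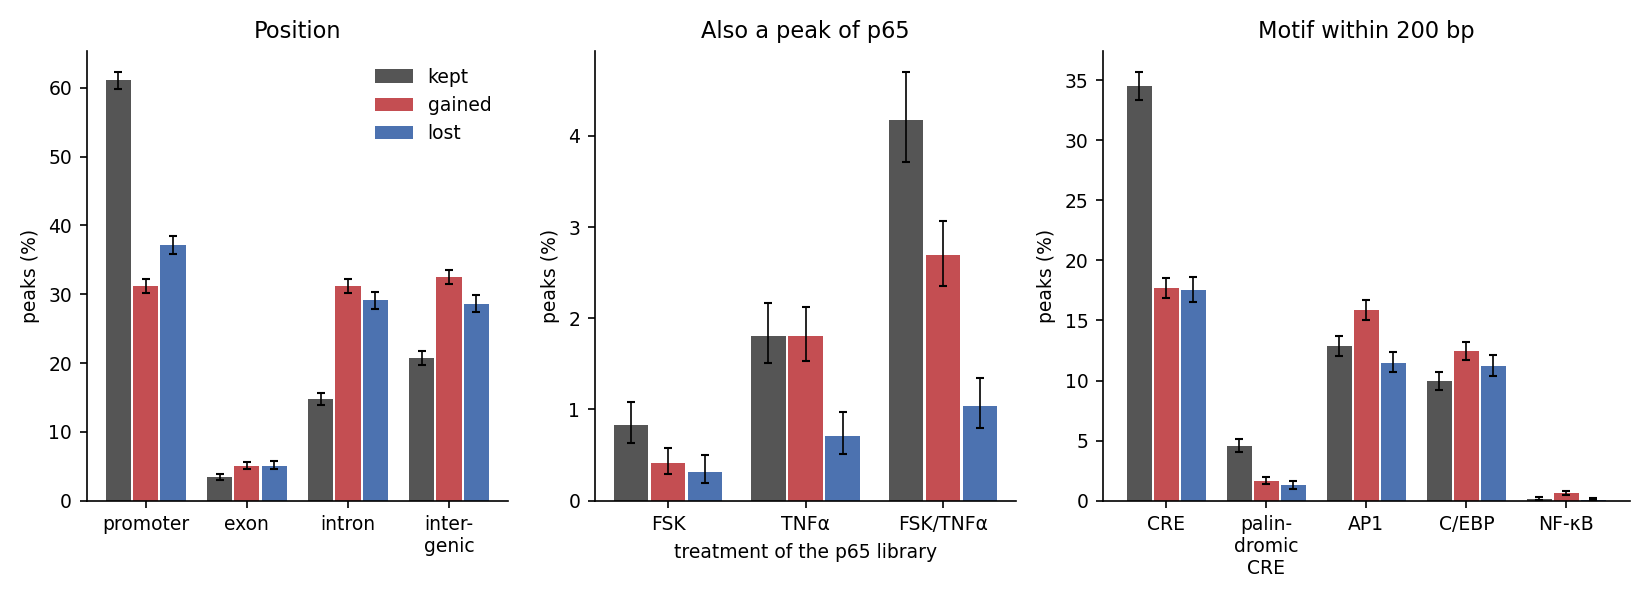
Percent of kept (grey), gained (red) and lost (blue) CRTC2 peaks by position (left), by overlap with p65 peaks under 3 treatments (middle) and by motif in the 200 bp window centered on the peak (right), with y axes in percent that differ between panels and bars for 95% Wilson intervals. Gained peaks stand above lost peaks for p65 under TNFα and FSK/TNFα (2.69% and 1.04% for the latter) and for AP1 (15.9% and 11.5%).

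Genes were given the peaks for which they had the nearest protein-coding start, up to 50 kb. Of 21911 protein-coding genes, 21.5% received a gained and 16.9% a lost peak. With lists of equal length this order turned, to 3779 genes with a gained and 3905 with a lost peak. Among 20 NF-κB pathway genes and targets, 14 had a gained and 11 a lost peak, with 33 gained and 15 lost peaks in all. Among 20 CREB targets, the numbers were also 14 and 11, with 29 gained and 18 lost peaks. Both lists thus stood above the background in both directions, by the same number of genes, and 10 NF-κB genes and 8 CREB targets had a gained and a lost peak at once. The lists hold genes chosen with earlier results known, so nothing particular to them is read from these counts.

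The kept peaks of NF-κB genes had a higher median ratio than kept peaks as a whole. Their 23 kept peaks had a median ratio of 1.29, against 0.966 for the kept peaks of all genes. Of these 23, 7 were over 1.5-fold higher and 2 over 1.5-fold lower, against 12.1% and 15.8% of all kept peaks. The lists were chosen with earlier results known, so this median and those of the lists below only describe the listed genes. Vcam1, which encodes an adhesion molecule for leukocytes, had a promoter peak at chr3:116129335-116129497 of 22.5 normalized tags with FSK and 83.0 with FSK/TNFα, a ratio of 3.69. With TNFα alone CRTC2 held 133.3 normalized tags there. The promoter peak of Irf1, an interferon-regulated transcription factor gene, went from 33.5 to 59.1. That of Birc3, for an inhibitor of apoptosis, went from 15.8 to 39.0. The peak 9153 bp before a start of Tnip1, a partner of A20, went from 9.73 to 24.8 and also carried p65 peaks with TNFα and with FSK/TNFα.

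Among the inhibitors of NF-κB the direction was not uniform. Nfkbia, which encodes IκBα, had a promoter peak of 37.1 normalized tags with FSK and 55.6 with FSK/TNFα. The promoter peak of Nfkbiz, the gene for a nuclear IκB protein, instead held 62.7 and 44.0. The promoter peak of Nfkbie held 32.9 and 34.3. Bcl3, of the same list, had 2 kept peaks, both lower with FSK/TNFα (20.7 and 10.4, 19.5 and 13.5). It also had 3 gained and 4 lost peaks. Among the subunit genes, Rel had 2 kept peaks by its start, of 20.1 and 29.6 and of 14.6 and 22.3 tags, while Nfkb1 held 14.6 and 13.5 at its promoter and Rela had 1 lost promoter peak of 17.0. Sod2, a gene for mitochondrial superoxide dismutase, had a kept peak of 34.1 and 31.8 and 4 gained peaks, the strongest with 39.0 tags in the intron shown above, where p65 peaks were called with FSK, TNFα or both. Of the 33 gained peaks of the NF-κB list 4 overlapped a p65 peak of FSK/TNFα cells, and of the 23 kept peaks 9 did.

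Kept peaks of cytokine genes lay mostly above a ratio of 1. Of 20 listed, 9 had a gained and 6 a lost peak, against 21.5% and 16.9% of all protein-coding genes. Their 19 kept peaks had a median ratio of 1.28. Of these 19, 7 were over 1.5-fold higher and 0 over 1.5-fold lower, against 12.1% and 15.8% of all kept peaks. Lif, for a cytokine of the IL-6 family, had 4 kept peaks from 27529 to 41733 bp past its start. They held 12.8, 29.2, 17.0 and 23.7 normalized tags with FSK and 26.4, 58.8, 21.7 and 54.7 with FSK/TNFα. Over 2-fold higher were 3 of them, out of 5 such peaks in the whole cytokine list. Cxcl5, for a neutrophil chemokine, had a promoter peak of 17.0 and 43.7 tags, at a site with p65 peaks under FSK and under TNFα, while its peak 5498 bp upstream held 36.5 and 35.8. A peak 16042 bp past the start of Cx3cl1, for a membrane-bound chemokine, held 21.3 and 43.1. The Il6 promoter peak held 34.1 and 40.2.

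The Cx3cl1 promoter peak was weak in both libraries, at 7.30 and 12.6 tags. The promoters of Cxcl1, Ccl2 and Ccl7 had values with FSK/TNFα close to those with FSK. The Cxcl1 promoter peak held 59.0 normalized tags with FSK and 54.7 with FSK/TNFα, that of Ccl2 58.4 and 52.8, and that of Ccl7 65.7 and 68.2. Cxcl1, Ccl2 and Ccl7 also had gained peaks. That of Ccl7 lay 2267 bp past its start and held 28.6 tags. Cxcl1 gained 3 peaks, the strongest at chr5:90893611-90893773, 2451 bp past its start, with 50 tags at rank 202 and 38.9 tags with TNFα alone, while 2 of its peaks were lost, the stronger one with 25.6 tags at chr5:90893026-90893186, next to that gained peak. Ccl2 gained 4 peaks between 12818 and 23496 bp upstream, of 12.6 to 26.1 tags. One of them, 18994 bp upstream with 26.1 tags, overlapped p65 peaks of TNFα and of FSK/TNFα cells.

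CREB targets as a list had a median ratio nearer to that of all kept peaks. Their 34 kept peaks had a median ratio of 1.04, with 7 over 1.5-fold higher, 3 over 1.5-fold lower and 20 carrying a CRE. Over all kept peaks, 12.1% were over 1.5-fold higher and 15.8% over 1.5-fold lower. Above a ratio of 1 were 55.9% of the kept peaks of CREB targets, 56.5% of those of NF-κB genes and 45.6% of all. The lists of CREB targets and NF-κB genes thus differed in median but hardly in this share. The promoter peak of Junb held 97.9 and 90.9 normalized tags, that of Dusp1, for a MAP kinase phosphatase, 75.4 and 76.1, and the peak 1737 bp before a start of Per1, a clock gene, 70.0 and 69.5. The orphan nuclear receptor genes differed from each other. Nr4a1 held 104.0 and 62.9 at its strongest promoter peak, a ratio of 0.605, Nr4a3 held 63.9 and 68.2 at its strongest site, and Nr4a2 held 26.8 and 43.4 at a site 1774 bp before a start. The promoter peaks of Fos (28.0 and 50.3) and Fosb (9.73 and 24.2) were higher with FSK/TNFα. Crem, which encodes a CREB-family factor with repressor isoforms, held 27.4 and 18.5 at one promoter and 38.3 and 24.5 at another. It also had 2 gained peaks, of 18.2 tags 27 bp before a start and of 10.4 tags 950 bp past one.

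**Figure D4:**
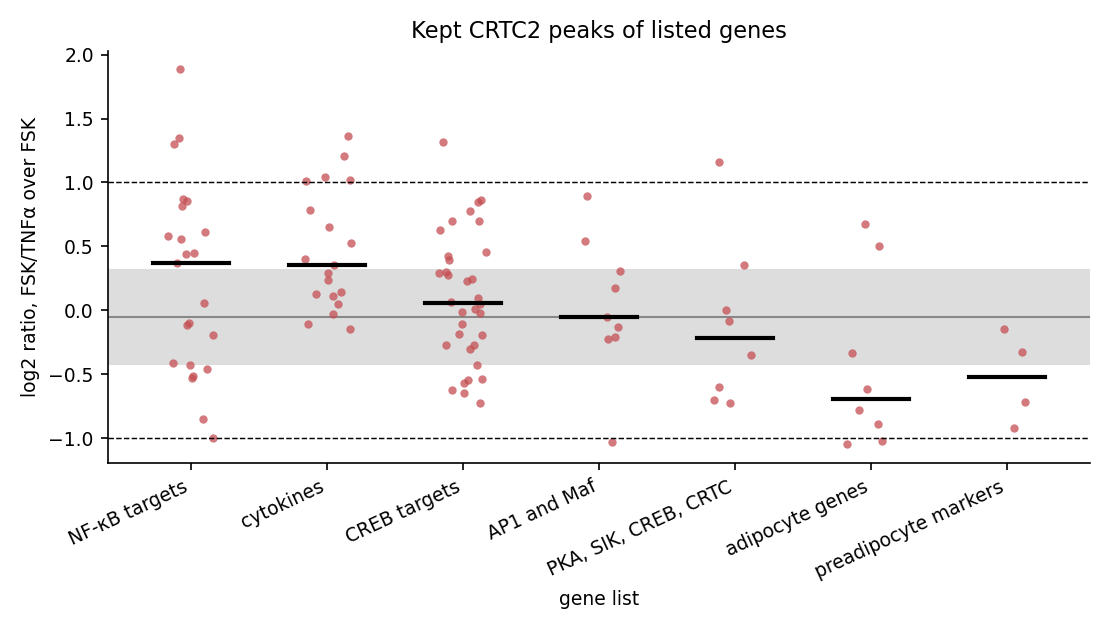
Log2 ratio of normalized tag counts, FSK/TNFα over FSK (y axis), of each kept CRTC2 peak of 7 gene lists (x axis, 1 point a peak, jittered sideways), with the median as a black bar, the median and middle quartiles of all kept peaks as a grey line and band, and dashed lines at 2-fold. Medians run from a ratio of 1.29 for NF-κB genes and 1.28 for cytokines, through 1.04 for CREB targets, to 0.618 for adipocyte genes.

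Adipocyte genes had the lowest median ratio of the lists with more than 4 kept peaks. Of 27 genes, 7 had a gained and 10 a lost peak, against 21.5% and 16.9% of all protein-coding genes. Their 8 kept peaks had a median ratio of 0.618. Of these 8, 5 were over 1.5-fold lower, against 15.8% of all kept peaks. Pnpla2, the gene for adipose triglyceride lipase, had a promoter peak of 14.0 and 6.92 normalized tags. Insr, the insulin receptor gene, had 26.8 and 14.5, Cebpd, for an early adipogenic factor, 66.9 and 43.7, and Dgat2, for triglyceride synthesis, 60.8 and 48.4. Klf5, for a factor of early adipogenesis, went the other way, from 12.8 to 20.4. Lost peaks stood at the promoters of Fabp4 (8.52), Lpl (6.69) and Lipe (9.73), all among the lower ranks of the FSK list, while the Cebpb promoter had a gained peak of 29.2 tags. With 8 kept peaks from 1 library each, the median has no replicate error.

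The regulators of the pathway had 8 kept peaks, all in promoters. Sik2, for a kinase that phosphorylates CRTCs, had a promoter peak of 13.4 normalized tags with FSK and 29.9 with FSK/TNFα. Creb1 held 54.1 and 35.8, Crtc2 itself 26.2 and 24.8, and Prkar1a, for a regulatory PKA subunit, 21.9 and 28.0. The list had more lost than gained peaks, 17 and 10, of which Prkar1a had 5 lost and Stk11, for a kinase upstream of the SIKs, had 4 lost. Sik3 had 4 gained and 0 lost peaks. Of the 9 AP1 and Maf genes, 3 had a gained and 3 a lost peak, against 21.5% and 16.9% of all protein-coding genes. The Jun promoter held 546.9 and 500.8 tags at its stronger peak, which ranked 3 with FSK and 4 with FSK/TNFα, and 138.7 and 133.9 at the other. Both lie in the high-input bin of chromosome 4 and were therefore left out of the strongest peaks named above. Jund went from 44.4 to 82.4, Fosl2 had 3 gained peaks, and Maf went from 49.3 to 24.2.

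Preadipocyte markers had 4 kept peaks with a median ratio of 0.703. The Col1a1 promoter, for type I collagen, held 59.6 and 53.8 normalized tags, and Pdgfra, for a receptor of mesenchymal cells, held 28.0 and 22.3. For the counts that follow, 21.5% of all protein-coding genes had a gained and 16.9% a lost peak. Of the macrophage genes, 4 of 8 had a gained and 1 a lost peak, and the 7 gained peaks held 6.29 to 11.3 tags. Of the endothelial genes 1 of 4 had a gained peak and 0 a lost one. A further 11 genes were listed from the study's own text and primers, and some of them, such as Cxcl1, Ccl2 and Cxcl5, are sites it described in these libraries, so their counts are no independent evidence. Of these, 5 had a gained and 6 a lost peak, 18 kept peaks had a median ratio of 1.25, and Cebpa, Il1b and Tnf had none. The lists overlap, with Lif, Il6 and chemokine genes in more than 1.

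Of the 5 largest ratios named by rule, that of the Vcam1 promoter, given above, started from 22.5 normalized tags with FSK, and the other 4 from under 10. An intergenic peak at chr17:29469573-29469735, 21099 bp before Pim1, a survival kinase gene, went from 9.13 to 39.9 normalized tags, at a site with a p65 peak and an H3AcK27 region in FSK/TNFα cells and no H3AcK27 region with FSK. The promoter peak of Loxl4, for a collagen cross-linking enzyme, went from 9.73 to 39.9, and held 41.6 with TNFα alone. An intronic site assigned to Cd47, for an inhibitory receptor ligand of phagocytes, went from 7.30 to 28.6, also with a p65 peak in FSK/TNFα cells. The promoter of Zfp871, for a zinc finger protein, went from 7.91 to 27.

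The smallest ratios were at sites of 21.9 to 25.6 normalized tags with FSK. A peak 22391 bp before Flt1, for a VEGF receptor, went from 24.9 to 5.66. Those at Nckap5l (22.5 to 5.97), Gm17509 (25.6 to 6.92), Wdtc1 (25.6 to 6.92) and Txlng (21.9 to 5.97) did likewise. Of these 5, 0 overlapped a p65 peak. Over all kept peaks only 4.18% overlapped one of FSK/TNFα cells, so 0 of 5 is near the general share. Outside the high-input bins, the strongest lost peaks after that of Sirt4 stood at the promoters of Alyref2 (52.9) and Eif4ebp1 (51.1), 1135 bp before Setd1b (52.3), and at Tnc (49.3, with 4.06-fold enrichment over input). The last, for the matrix protein tenascin C, was just past the authors' 4-fold threshold. CRTC2 was called with TNFα alone at Setd1b (45.7) and Eif4ebp1 (40.4), and in untreated cells as well (28.6 and 24.9). These sites were thus in the lists of untreated cells and of both single treatments, and not in that of FSK/TNFα. They also overlapped p65 peaks, of FSK/TNFα cells at Setd1b and of TNFα cells at Eif4ebp1. The strongest gained peaks, after that of Sirt4, were a site 18935 bp past the start of Tnfsf15 (61.6, with 4.65-fold enrichment) and the promoter of Dph5 (50.9), for an enzyme of diphthamide synthesis.

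**Figure D5:**
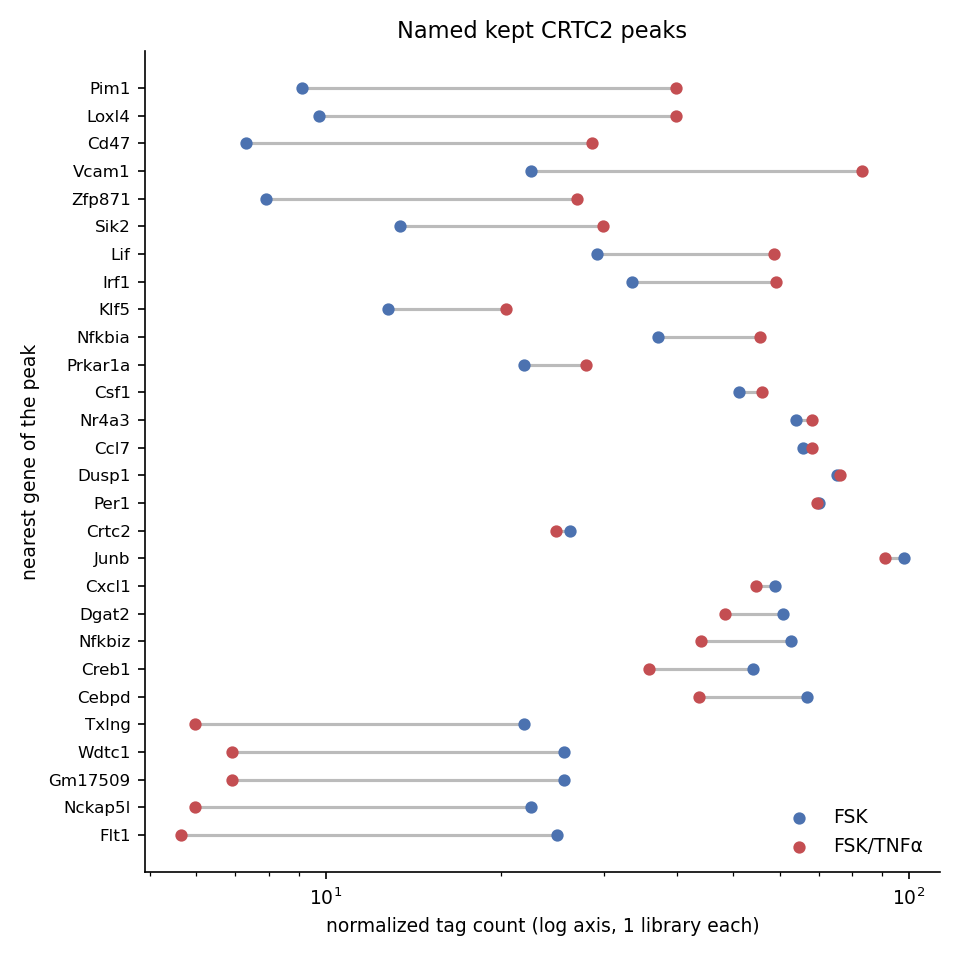
Normalized tag count (x axis, log axis) of 28 named kept peaks, 1 row a peak by its nearest gene (y axis), with FSK (blue) and FSK/TNFα (red), 1 library each. Rows are ordered by ratio, from Pim1 (9.13 to 39.9) at the top to Flt1 (24.9 to 5.66) at the bottom, with CREB targets such as Dusp1 (75.4 and 76.1) near equality.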

How the data were processed

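CRTC2, p65 and H3AcK27 were profiled by ChIP-seq in 3T3-L1 cells, 1 library for each treatment. The authors aligned reads with STAR to mm10 and called peaks with HOMER, per the labels and the file headers (versions not given in the sources used here). The deposited lists hold normalized tag counts (signal per 10000000 tags), a findPeaks score, and fold enrichment over input as a ratio, with thresholds of an FDR of 0.001, 4-fold over input, 4-fold over the surrounding 10 kb, and a Poisson p of 0.0001. Both lists compared here used the FSK input. Total tag columns were scaled and were not compared.

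Peaks were matched by overlap (at least 1 bp), and placed with GENCODE protein-coding starts, and sequences were read from the RefSeq GRCm38 genome. In all, 0 peaks passed a chromosome end. Motifs were searched by exact match on both strands. Shares carry 95% Wilson intervals, differences Newcombe intervals. Python 3.11.15 with pandas 2.3.3, scipy 1.17.1 and pysam 0.24.0 was used, and the matching was tested on simulated data with known overlaps. Named peaks were the 5 highest ranked kept, gained and lost, the 5 largest and 5 smallest ratios with at least 20 normalized tags in the higher library (1 a gene, within 50 kb, outside high-input bins), 11 genes listed from the study's text and primers, and up to 4 members of each list; other listed genes were named after their values were seen. Some kept peaks that the rule names are not reported here. The members and gene lists were chosen with earlier results of these data known. Alternatives were other overlap rules, equal or shorter lists, stricter thresholds, other windows and distances.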

Additional observations from a re-analysis of the deposited data

How the results depend on the processing

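For the values that answer a comparison, shares moved past their 95% interval, or counts by over 1.5 times, as follows, and the cause was not tested. Matching by midpoints within 100 bp gave 60.2% gained and 52.0% lost, an overlap of most of the shorter peak (at least 1 of every 2 bases) 63.6% and 56.1%, and widening peaks by 500 bp on each side 44.7% and 33.6%. Lists of equal length gave 48.6% on both sides by normalized tag count, with 36.5% of gained peaks in promoters, 32.3% in the CRTC2 TNFα list and 3.12% in the p65 FSK/TNFα list, and 47.7% on both sides by score. The best 5000 of each list gave 2809 kept, 2191 gained and 2191 lost peaks (43.8%). At 8-fold over input there were 3294 kept and 4975 gained peaks, 60.2% gained and 53.3% lost, with 30.2% of gained and 34.5% of lost peaks in the CRTC2 TNFα list and 4.83% of kept, 3.38% of gained and 1.38% of lost peaks in the p65 FSK/TNFα list. At 20 or more normalized tags there were 1377 kept, 963 gained (41.2%) and 1077 lost peaks (43.9%). At 1.5-fold in place of 2-fold, 767 kept peaks were higher and 1003 lower. By score, 522 were over 2-fold higher and 5 lower. Promoters from 2000 bp upstream to 500 bp downstream held 65.1%, 36.1% and 42.4% of kept, gained and lost peaks.

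Further settings were chosen after seeing the data. In the best 1000 peaks of each class, promoters held 64.1% of kept, 59% of gained and 61.4% of lost peaks, the CRTC2 TNFα list 72.6%, 54.6% and 53.3%, and the p65 FSK/TNFα list 6.4%, 5.3% and 1.6%. Outside promoters the CRTC2 TNFα list held 25.8%, 10.8% and 12.7%, and the p65 FSK/TNFα list 9.04% of kept and 3.65% of gained peaks. Among peaks with none of the other list within 1 kb, promoters held 24.9% of gained and 29.0% of lost peaks and the CRTC2 TNFα list 23.2% and 26.5%. Among the other values, 102 of 145 alternatives moved, nearly all motif shares under other windows among them. The CRE share of kept peaks was 21.2% in 100 bp and 46.2% in 400 bp, and in 400 bp that of gained peaks (26.9%) was below that of lost peaks (27.4%). The CRTC2 control list held 15.2% of the best 1000 gained peaks, against 4.66% of all. Of 240 alternative values in all, 81 stayed within these limits. No paired analysis was possible because each group is 1 library, and no replicate could be left out for the same reason. The FSK library held 16438040 tags and the FSK/TNFα library 31807394, and peaks near the calling threshold in either list have no second library behind them.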
